A study of Mus musculus with 12 samples.

Results

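Collagen chain genes were taken as every row whose gene symbol is Col, a type number, a and a chain number, which gave 44 genes of 57010 in each library. By collagen class, 11 were fibrillar, 6 beaded filament (type VI), 9 network-forming, 9 fibril-associated and 4 transmembrane. The others were 2 multiplexins (Col15a1 and Col18a1) and 3 that fit none of these classes (Col7a1, Col26a1 and Col28a1). The rule reads gene symbols and no measured value, but the family was chosen with earlier results of these data known. Counts of called chains therefore describe the set and are not an independent test of it.

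Collagens are trimers of chains that wind into a triple helix in the endoplasmic reticulum and are secreted into the extracellular matrix. Fibrillar chains build the cables of connective tissue, type VI forms beaded microfilaments close to the cell surface, and type IV forms the sheet-like network of basement membranes. Fibril-associated collagens decorate fibrils, and type XVII spans the membrane of epithelial cells at hemidesmosomes. Mesenchymal cells make most fibrillar collagen, whereas epithelial cells are known for basement membrane chains. The miR-200 family is a group of microRNAs that is high in epithelial cells and is known to repress the transcription factors Zeb1 and Zeb2.

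RNA was sequenced from 2 murine ovarian cancer cell lines in 2D culture, ID8 and 28-2, with 3 independent samples in each of 4 groups. The controls, ID8EV and 28-2EV, were infected with an empty lentivirus that carries EGFP, puromycin resistance and mCherry. ID8-200f and 28-2-200f were infected with a lentivirus for the miR-200c/141 cluster, with hygromycin resistance, and with another for miR-200b/200a/429 (both under a CMV promoter). Puromycin was kept at 30 µg/ml for both controls, at 40 µg/ml for ID8-200f and at 60 µg/ml for 28-2-200f, and hygromycin was added at 50 µg/ml for ID8-200f and 1000 µg/ml for 28-2-200f. Drug dose, vector and microRNA expression therefore changed together, and their effects on the collagens cannot be told apart. No separate infections are described for the samples of a group, so their spread may not include differences between infections or selections. The miR-200 microRNAs themselves were not measured in these libraries.

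Total counts were 16390953 to 23063875 per library. 28-2EV replicate 2 stood apart from its group, with log2 deviations from the other replicates that had an SD of 0.815 over genes, against 0.281 to 0.390 for the ID8 libraries and 0.402 to 0.625 for the other 28-2 libraries. Of the 18 collagen chains tested in 28-2, this library was the lowest of the 28-2EV group in 10 and the highest in 4. That count does not single it out, as 28-2EV replicate 3 was the highest in 13 and the lowest in 0. Because of the SD over genes, counts of chains called in 28-2 are given with and without replicate 2. Single chains are given likewise where the loss of replicate 2 changed the call or the direction. Epithelial keratins were abundant, and 6 epithelial markers summed to 6670 to 7260 TPM (a transcript level scaled for gene length and library total) in ID8EV and to 5861 to 6732 TPM in 28-2EV. Epcam, an epithelial surface protein, had 0 counts in all 28-2EV libraries. These are bulk RNA levels, in which fewer cells of a kind and less RNA per cell cannot be told apart.

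The mature mouse microRNAs of the miR-200 clusters fall into 2 seed groups, and the 3p arms are shown because the seed decides which messages can pair with them. The species of the inserts in the vectors is not given in the sources used here. The capitals mark bases 2 to 8, and the sequences and positions are those of RefSeq on GRCm38.p6, all on the minus strand.
mmu-miR-200b-3p (chr4:156055685-156055706): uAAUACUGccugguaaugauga
mmu-miR-200c-3p (chr6:124718324-124718346): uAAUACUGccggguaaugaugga
mmu-miR-429-3p (chr4:156053916-156053937): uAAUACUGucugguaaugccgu
mmu-miR-200a-3p (chr4:156054911-156054932): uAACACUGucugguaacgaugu
mmu-miR-141-3p (chr6:124717917-124717938): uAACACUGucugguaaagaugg
The first 3 share the seed AAUACUG and the last 2 share AACACUG, which differ at a single base.

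The longest annotated 3′UTR of each chain gene (GENCODE M21, GRCm38) was searched on the transcript strand for CAGTATT and CAGTGTT, the complements of the 2 seeds. Of the 44 chains, 7 held CAGTATT (15.9%, against 13.9% of 21153 genes) and 5 held CAGTGTT (11.4%, against 18%). Either site was in 12 chains (27.3%), against 26.9% of all genes. Median 3′UTR length was 1080 bases in the chains and 1084 bases in all genes. Among the 15 chains described below in every library, 5 held a site, and their windows are printed with the site in capitals to show the match itself.
Col11a1 (chr3:114220474-114220503, plus strand): aataatggcataCAGTATTtccaataaaat
Col5a1 (chr2:28037308-28037337, plus strand): gtgggggcgggaCAGTATTtgaagatcact
Col4a5 (chrX:141688994-141689023, plus strand): tgtgtaagaagaCAGTATTtgcttagtctt
Col4a6 (chrX:141166102-141166131, minus strand): aggctgaaaggcCAGTATTtggtcctagac
Col4a1 (chr8:11199359-11199388, minus strand): caacccactgtcCAGTGTTtccacatcagg
Neither 7-base sequence was in the longest 3′UTR of the other 10, which include Col1a1, Col6a1, Col6a2 and Col16a1. Such a match is a description of the sequence and not a measured target.

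Promoters were searched for CACCTG on both strands, an E-box that Zeb proteins are known to bind. In the 250 bases before the start, 4 of the 38 RefSeq promoters of chains held it (10.5%), against 17.2% of 32851 promoters. By gene, it was in 4 of the 35 chains with a RefSeq promoter (11.4%). Of the 15 chains described below, 12 had a promoter in the table and only that of Col16a1 held the E-box. Upstream sequences (GRCm38.p6, 5′ to 3′ along the gene) are printed for Col16a1 and Col6a1, the chains that passed the stricter cut-off in both lines, with the E-box in capitals.
Col16a1 (chr4:130047590-130047839, plus strand): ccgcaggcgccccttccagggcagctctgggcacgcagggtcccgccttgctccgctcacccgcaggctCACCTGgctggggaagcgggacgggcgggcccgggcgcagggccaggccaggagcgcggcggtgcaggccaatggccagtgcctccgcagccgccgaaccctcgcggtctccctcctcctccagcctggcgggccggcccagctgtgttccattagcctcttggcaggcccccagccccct
Col6a1 (chr10:76726045-76726294, minus strand): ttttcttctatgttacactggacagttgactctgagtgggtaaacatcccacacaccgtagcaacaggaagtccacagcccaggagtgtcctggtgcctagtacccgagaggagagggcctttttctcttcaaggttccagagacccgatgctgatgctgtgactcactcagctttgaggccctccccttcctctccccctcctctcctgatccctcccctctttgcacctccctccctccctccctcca
The Col16a1 E-box began at position -181 from the start, and the Col6a1 window held none. No match says only that these letters are not in this window.

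Few collagen genes carried nearly all collagen RNA in these cells. Of the 44 chains, 3 had 0 counts in all 12 libraries (Col5a3, Col9a1 and Col19a1), where 0 counts allow up to 3, and 22 had at most 50 counts over all libraries together. A mean of at least 5 CPM (counts scaled to the library total) in some group was reached by 14 chains, and these, with Col11a1, are the 15 given in every library. The other 29 chains did not exceed 3.13 TPM in any library. Partner chains of abundant chains were nearly absent: Col1a2, which normally completes the type I trimer with Col1a1, had 4 counts in total, and Col6a3, a usual partner in the type VI trimer, had 16.

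Basement membrane chains dominated in the controls of both lines. The 4 chains Col4a1, Col4a2, Col4a5 and Col4a6 made up 59.0% to 61.1% of collagen TPM in ID8EV and 55.6% to 78.3% in 28-2EV. Their mean levels in ID8EV were 240 ± 10.9 TPM for Col4a1, 224 ± 13.3 for Col4a2, 263 ± 29.0 for Col4a5 and 133 ± 17.1 for Col4a6 (SD, n = 3). Col6a1 was as abundant in ID8EV, at 287 ± 59.4 TPM, a range that overlapped that of Col4a5. Next in level came Col5a2 (99.03 ± 5.45 TPM), Col1a1 (79.4 ± 14.2), Col16a1 (52.7 ± 5.22) and Col6a2 (26.1 ± 7.15), all as mean TPM in ID8EV. Each of Col3a1, Col5a1, Col17a1 and Col20a1 lay between 4.14 and 8.71 TPM in ID8EV.

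**Figure D1:**
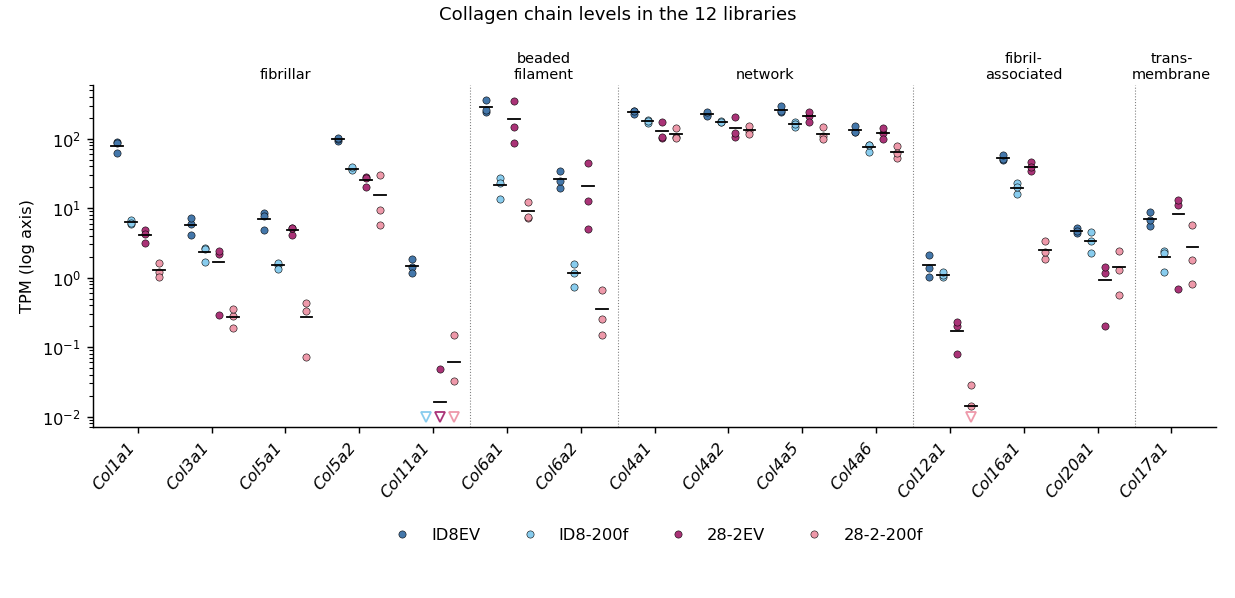
TPM (log axis) of the 15 chains in each library, by collagen class, where points are libraries, bars are group means and open triangles are libraries with 0 counts. Col6a1 and Col6a2 lay lower in every 200f library than in any control library of the same line, whereas Col4a1 and Col4a2 stayed above 100 TPM in all 12 libraries.

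In ID8, most of the expressed collagen chains were lower with the miR-200 clusters. Of the 21 chains that had enough counts to test, 14 fell at an adjusted p under 0.05, which is to be read against 19.0% of all 13280 genes called lower in that comparison. None was called higher by edgeR (0 also at an unadjusted p under 0.05, and 0 by DESeq2), where 17.0% of all genes were. A stricter cut-off (adjusted p under 0.01 and a log2 fold change beyond 1 in either direction) was passed by 9 chains, all lower, against 7.41% of all genes. The median log2 fold change of the 21 chains was -1.27, also with Col11a1 at its bound, and that of all genes was 0.00 to 2 decimals (-0.0011). Of the classes, 5 of 6 fibrillar chains tested, both beaded filament chains, all 4 network chains, 2 of 5 fibril-associated chains and the only transmembrane chain fell. Neither multiplexin passed the test, nor did Col7a1, the chain of anchoring fibrils. Of the multiplexins, Col18a1, the precursor of endostatin, had a log2 fold change of -1.27 (edgeR adjusted p = 0.0797), and without ID8-200f replicate 1 it fell by 2.14 (adjusted p = 0.0208).

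In 28-2 fewer chains passed, and the control replicates spread more widely. Of 18 chains tested, 6 fell (Col1a1, Col4a6, Col5a1, Col6a1, Col6a2 and Col16a1), against 2.18% of all 12679 genes called lower. Again 0 were called higher by edgeR, with 0 at an unadjusted p under 0.05 and 0 by DESeq2, against 2.26% of all genes. Col6a1 and Col16a1 passed the stricter cut-off, which 0.757% of all genes passed. The median log2 fold change was -1.02 over the chains and -0.01 over all genes. Without 28-2EV replicate 2, 9 chains fell, against 5.49% of all genes in that fit, and 5 passed the stricter cut-off, against 1.87%. The call also rested on other libraries. It was made for 3 chains without 28-2EV replicate 1 (against 0.339% of all genes), 3 without 28-2-200f replicate 1 (against 0.698%) and 2 without 28-2-200f replicate 2 (against 0.214%). The stricter cut-off was passed by 0 without 28-2EV replicate 1 or 28-2-200f replicate 2 (against 0.0617% and 0.0611% of all genes). It was passed by 1 without 28-2-200f replicate 1 or 3 (against 0.0844% and 0.107%). All 6 chains called in 28-2 were among the 14 called in ID8, which is 42.9% of the ID8 list and 100% of the 28-2 list. Of the 18 chains tested in both lines, 14 had a negative fold change in both, and 12 without 28-2EV replicate 2. Of all genes, 50.2% had a negative fold change in ID8 and 51.2% in 28-2. The shares of all genes called or negative in both lines are not given here, so these overlaps are not read as particular to collagens.

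**Figure D2:**
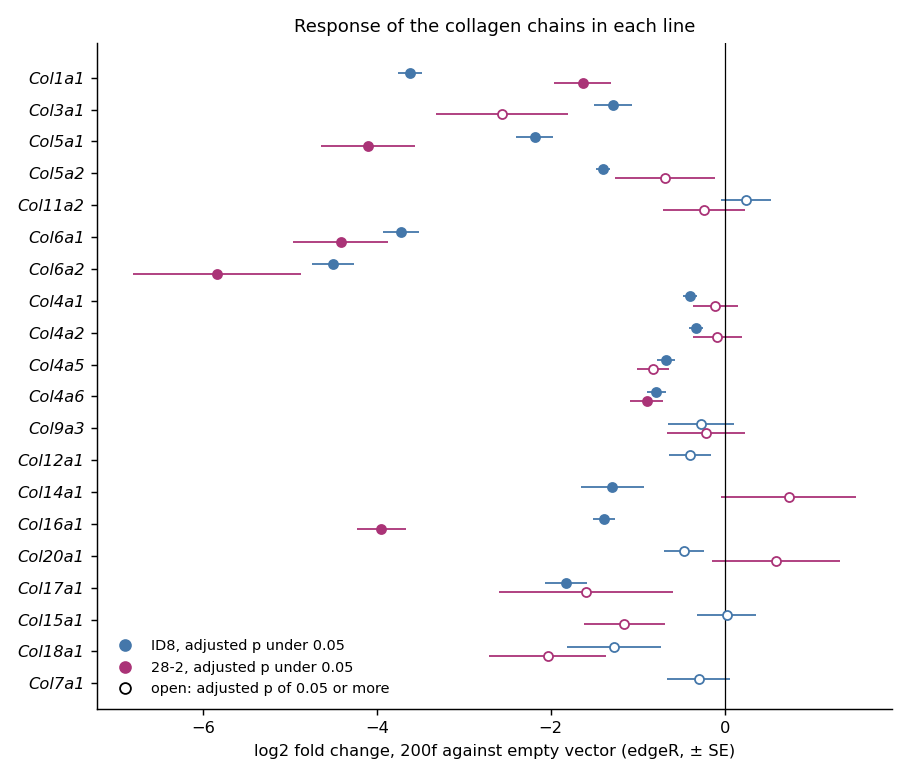
Fitted log2 fold change (x axis, edgeR, bars ± SE) of each tested chain in ID8 (blue) and 28-2 (magenta), with filled points at an adjusted p under 0.05. Col11a1 is left out because it had 0 counts in ID8-200f, and Col6a2 has the most negative value shown in each line.

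Type VI chains had the most negative fitted values among the abundant chains. Others came close to Col6a1, namely Col1a1 in ID8 (log2 fold change -3.62) and Col16a1 in 28-2 (-3.95). Col6a1 was at 244, 263 and 355 TPM in the ID8EV libraries and at 27.1, 13.6 and 23.4 TPM in the ID8-200f libraries. Every ID8-200f library lay far under every control, and the chain fell by 3.72 on the log2 scale (SE 0.21, edgeR adjusted p = 3.09e-08). In 28-2EV it was at 149, 87.8 and 345 TPM, and in 28-2-200f at 12.4, 7.32 and 7.41 TPM. Replicate 2 was the lowest control and replicate 3 the highest, but all 3 lay above all 28-2-200f libraries. Col6a1 fell by 4.42 on the log2 scale (SE 0.54, edgeR adjusted p = 0.00936, range over the alternatives 7.32e-32 to 0.0555). The call was lost without 28-2-200f replicate 2, where the adjusted p was 0.0555.

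Col6a2, the second chain of the type VI trimer, was at 19.6, 24.9 and 33.8 TPM in ID8EV and at 1.15, 0.722 and 1.58 TPM in ID8-200f. It fell by 4.51 on the log2 scale in ID8 (SE 0.24, edgeR adjusted p = 2.17e-08), with no overlap. The 28-2EV libraries were at 12.5, 5.09 and 44.1 TPM and the 28-2-200f libraries at 0.670, 0.257 and 0.148 TPM. The controls differed among themselves by more than in ID8, and still none overlapped with 28-2-200f. Col6a2 fell by 5.84 on the log2 scale (SE 0.96, edgeR adjusted p = 0.0188). That call was lost without 28-2EV replicate 1 (adjusted p = 0.0579), 28-2-200f replicate 1 (0.0573), 28-2-200f replicate 2 (0.105) or 28-2-200f replicate 3 (0.0760). Col6a1 and Col6a2 are neighbours on chromosome 10 in the RefSeq gene order.

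Among fibrillar chains with counts in every library, Col1a1 had the largest fall in ID8. Its TPM was 89.4, 85.7 and 63.1 in ID8EV and 6.81, 5.98 and 6.13 in ID8-200f. The lowest control was far above the 200f libraries, and Col1a1 fell by 3.62 on the log2 scale (SE 0.14, edgeR adjusted p = 9.37e-10). In 28-2 the level was low from the start, at 3.19, 4.77 and 4.29 TPM in 28-2EV and 1.21, 1.63 and 1.03 TPM in 28-2-200f. The groups did not overlap and Col1a1 fell by 1.63 on the log2 scale (SE 0.33, edgeR adjusted p = 0.0378). This call was lost in 6 of 15 alternatives, with adjusted p from 1.28e-04 to 0.131. They included the fits without 28-2EV replicate 1 (0.0798) or 3 (0.101) and without 28-2-200f replicate 1 (0.114), 2 (0.0998) or 3 (0.131).

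Type V chains start fibrils and limit their width. Col5a2 was at 93.0, 100 and 104 TPM in ID8EV and at 36.1, 35.8 and 38.5 TPM in ID8-200f, tight within each group. It fell by 1.40 on the log2 scale (SE 0.08, edgeR adjusted p = 5.52e-08). In 28-2 the controls were at 20.4, 28.3 and 27.1 TPM, but 28-2-200f held 9.49, 5.70 and 30.5 TPM. Replicate 3 of 28-2-200f was above all controls, and the log2 fold change of -0.69 (SE 0.57, edgeR adjusted p = 0.572) did not pass. Without that library Col5a2 fell by 1.75 on the log2 scale (adjusted p = 0.0397, range over the alternatives 0.0397 to 0.883).

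Col5a1, the usual partner of Col5a2, was at 8.44, 7.81 and 4.92 TPM in ID8EV and at 1.54, 1.62 and 1.33 TPM in ID8-200f. It fell by 2.19 on the log2 scale (SE 0.21, edgeR adjusted p = 4.05e-06), and the groups did not overlap. In 28-2EV it was at 4.09, 5.10 and 5.16 TPM, similar in all 3 controls. The 28-2-200f libraries held 0.326, 0.424 and 0.0720 TPM, and Col5a1 fell by 4.10 on the log2 scale (SE 0.54, edgeR adjusted p = 0.0111). This was called in all 15 alternatives, with adjusted p from 1.12e-14 to 0.0495, and 28-2-200f held 33 counts in total.

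Col3a1, which joins type I in mixed fibrils, was at 5.86, 7.26 and 4.14 TPM in ID8EV and 2.69, 1.68 and 2.57 TPM in ID8-200f. All controls were higher, and it fell by 1.29 on the log2 scale (SE 0.22, edgeR adjusted p = 4.82e-04). In 28-2, replicate 2 of the controls differed from the rest, with 2.22, 0.294 and 2.45 TPM in 28-2EV and 0.284, 0.348 and 0.188 TPM in 28-2-200f. With this library the log2 fold change was -2.56 (SE 0.76, edgeR adjusted p = 0.114), and without it Col3a1 fell by 3.05 on the log2 scale (adjusted p = 0.00824). Over the alternatives the adjusted p was 1.35e-08 to 0.307.

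Col11a1, a minor fibrillar chain of cartilage that is also made by activated fibroblasts, had 82, 126 and 89 counts in ID8EV and 0 in each ID8-200f library. With 3 counts taken as the limit for the ID8-200f group, it was at least 98.8-fold lower in ID8-200f (edgeR adjusted p = 1.04e-06). Its level in ID8EV was 1.15 to 1.83 TPM. 28-2EV held 3 counts in all and 28-2-200f held 11, too few to test.

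Type IV chains, which build basement membranes, fell by less in ID8 than the chains above, and all 4 passed. Col4a1 and Col4a2, which form the common type IV trimer, were at 246, 228 and 247 TPM and 219, 214 and 239 TPM in ID8EV. In ID8-200f, Col4a1 was at 170, 187 and 177 TPM and Col4a2 at 172, 177 and 172 TPM. No ID8-200f library reached a control. Col4a1 fell by 0.40 (SE 0.08, edgeR adjusted p = 0.00220) and Col4a2 fell by 0.33 (SE 0.08, adjusted p = 0.00644) on the log2 scale.

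In 28-2 these chains overlapped between the groups. Col4a1 was at 103, 176 and 107 TPM in 28-2EV and 106, 104 and 141 TPM in 28-2-200f, with replicate 2 the highest of the controls. Col4a2 was likewise at 104, 205 and 119 TPM in 28-2EV and 128, 116 and 154 TPM in 28-2-200f. The log2 fold changes of -0.11 (SE 0.26, edgeR adjusted p = 0.862) and -0.09 (SE 0.28, adjusted p = 0.900) did not pass. Without 28-2EV replicate 2 both changed sign, to 0.20 for Col4a1 (adjusted p = 0.522) and 0.28 for Col4a2 (adjusted p = 0.342), and again did not pass.

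Col4a5 and Col4a6, which share a trimer found in the basement membranes of skin and smooth muscle, had similar log2 fold changes in both lines. Col4a5 was at 244, 248 and 296 TPM in ID8EV and 176, 146 and 160 TPM in ID8-200f, and fell by 0.67 on the log2 scale (SE 0.10, edgeR adjusted p = 1.75e-04). Col4a6 was at 123, 123 and 153 TPM in ID8EV and 81.2, 64.4 and 80.9 TPM in ID8-200f, and fell by 0.79 (SE 0.11, adjusted p = 9.57e-05). Neither chain overlapped between the ID8 groups.

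For 28-2, Col4a5 was at 216, 175 and 242 TPM in the controls and 146, 110 and 98.6 TPM in 28-2-200f. Its log2 fold change of -0.82 (SE 0.18, edgeR adjusted p = 0.0531) did not pass, although the groups did not overlap, and without 28-2EV replicate 2 it fell by 0.93 (adjusted p = 0.0211). Over the alternatives the adjusted p of Col4a5 was 6.32e-05 to 0.225. Col4a6 was at 122, 98.7 and 140 TPM in 28-2EV and 78.7, 51.9 and 61.6 TPM in 28-2-200f, and fell by 0.89 on the log2 scale (SE 0.19, edgeR adjusted p = 0.0448). That call was lost in 8 of 15 alternatives, with adjusted p from 3.44e-05 to 0.200. It did not hold without 28-2EV replicate 1 (0.147) or 3 (0.101), nor without 28-2-200f replicate 1 (0.0830), 2 (0.200) or 3 (0.146). The remaining type IV chains, Col4a3 and Col4a4, stayed at or under 0.174 TPM in every library.

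Fibril-associated chains behaved unequally. Col16a1, which binds fibrils and integrins, was at 49.0, 50.3 and 58.6 TPM in ID8EV and at 23.2, 16.1 and 19.9 TPM in ID8-200f. It fell by 1.39 on the log2 scale (SE 0.12, edgeR adjusted p = 1.90e-06). In 28-2EV it was at 34.8, 45.8 and 38.7 TPM, with replicate 2 the highest, and in 28-2-200f at 1.88, 2.31 and 3.35 TPM. The groups were far apart, and Col16a1 fell by 3.95 on the log2 scale (SE 0.28, edgeR adjusted p = 0.00225), a call held in all 15 alternatives with adjusted p from 3.03e-37 to 0.0185.

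Col12a1, which links fibrils to the surrounding matrix, overlapped in ID8, at 2.11, 1.37 and 1.03 TPM in ID8EV and 1.02, 1.11 and 1.19 TPM in ID8-200f. Its log2 fold change of -0.40 (SE 0.24, edgeR adjusted p = 0.215) did not pass. In 28-2 it had 6, 15 and 16 counts in the controls and 2, 1 and 0 in 28-2-200f, which did not overlap but were too few to be tested in that line alone. Col20a1 was at 4.34, 5.14 and 4.75 TPM in ID8EV and 4.54, 2.24 and 3.35 TPM in ID8-200f, with replicate 1 within the range of the controls. The log2 fold change was -0.46 (SE 0.23, edgeR adjusted p = 0.132), and without ID8-200f replicate 1 Col20a1 fell by 0.75 (adjusted p = 0.0222). In 28-2 it was at 1.18, 0.200 and 1.43 TPM in the controls and 2.38, 1.29 and 0.559 TPM in 28-2-200f (log2 fold change 0.59, SE 0.74, edgeR adjusted p = 0.716), and the log2 fold change was 0.12 without 28-2EV replicate 2. Col14a1, another fibril-associated chain at 1.34 to 2.56 TPM in ID8EV, fell in ID8 by 1.29 on the log2 scale (SE 0.36, edgeR adjusted p = 0.0133), a call lost without ID8EV replicate 2 (adjusted p = 0.0670).

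Col17a1, the transmembrane collagen of hemidesmosomes, is an epithelial chain. It was at 5.60, 6.76 and 8.71 TPM in ID8EV and 2.41, 1.22 and 2.27 TPM in ID8-200f, without overlap, and fell by 1.82 on the log2 scale (SE 0.24, edgeR adjusted p = 7.11e-05). In 28-2 it was at 11.2, 0.685 and 13.1 TPM in the controls and 5.71, 1.81 and 0.820 TPM in 28-2-200f. Here 28-2EV replicate 2 was lower than every 28-2-200f library, and the log2 fold change of -1.59 (SE 1.00, edgeR adjusted p = 0.437) did not pass. Without that library the log2 fold change was -2.13, which did not pass with edgeR (adjusted p = 0.0725) and passed with DESeq2 (adjusted p = 0.00726). Without 28-2-200f replicate 1 it was -2.57 (edgeR adjusted p = 0.301). Over the alternatives the adjusted p was 0.00726 to 0.731, and 1 of 15 called it.

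By class, network chains made up more of the collagen TPM in the 200f libraries of both lines. Summed over the 44 chains, collagen TPM lay between 1362 and 1583 in ID8EV, between 659 and 712 in ID8-200f, between 788 and 1096 in 28-2EV and between 406 and 502 in 28-2-200f. The network class made up 59.8% ± 1.19 of this sum in ID8EV and 85.4% ± 1.66 in ID8-200f (SD, n = 3). In 28-2 its share was 67.7% ± 11.4 in the controls and 92.2% ± 1.73 in 28-2-200f. Neither line had overlapping groups in this share. The summed TPM of the network class was itself lower, with means of 860 in ID8EV and 588 in ID8-200f. In 28-2 the means were 603 in the controls and 432 in 28-2-200f.

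The beaded filament class made up less of the collagen TPM in the 200f libraries. Its share was 21.6% ± 2.67 in ID8EV and 3.25% ± 0.940 in ID8-200f, and 22.4% ± 12.3 in 28-2EV and 2.00% ± 0.560 in 28-2-200f, all as shares of collagen TPM. The fibrillar share was 13.6% ± 2.01 in ID8EV and 6.99% ± 0.206 in ID8-200f. In 28-2 it was 4.07% ± 0.530 and 3.68% ± 2.41, and the libraries of the groups overlapped. These shares were not tested, since an exact permutation test of 3 against 3 libraries cannot give a two-sided p under 0.1.

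**Figure D3:**
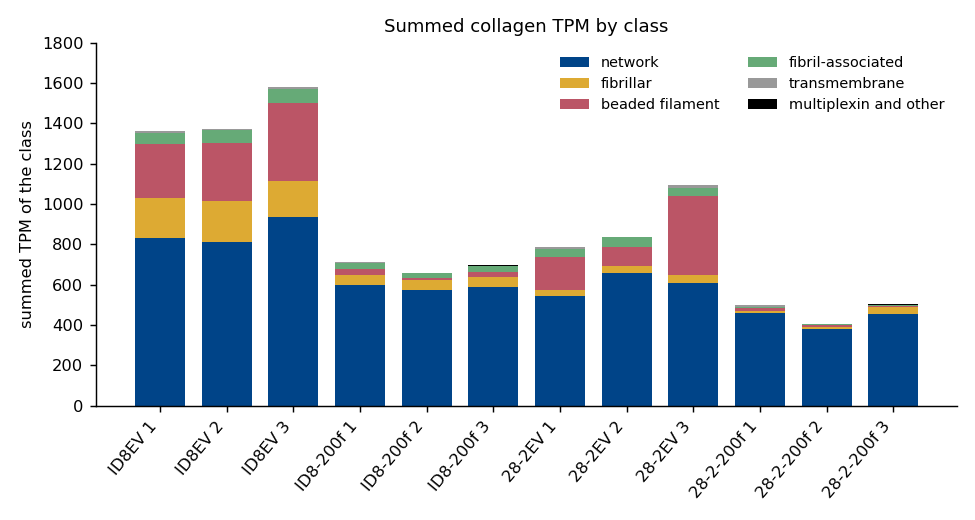
Stacked bars of the summed TPM of each collagen class (y axis) in each of the 12 libraries (x axis, group and replicate number). The total was 659 to 712 in ID8-200f against 1362 to 1583 in ID8EV, and the beaded filament block is thin in all 200f libraries.

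Ratios of partner chains varied less within type IV than within types V and VI. The TPM ratio of Col4a2 to Col4a1 was 0.890 to 1.20 over all 12 libraries, including 28-2EV replicate 2, where both chains were the highest of their group. Col4a6 to Col4a5 was 0.440 to 0.625. Between the controls, Col4a2 to Col4a1 was 0.890 to 0.968 in ID8EV and 1.01 to 1.16 in 28-2EV. Col4a6 to Col4a5 was 0.496 to 0.516 in ID8EV and 0.563 to 0.578 in 28-2EV, so neither ratio overlapped between the lines. Both pairs of chains are neighbours in the RefSeq gene order, on chromosomes 8 and X. Each pair is known to share the stretch between the starts of its genes.

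The ratio of Col6a2 to Col6a1 was 0.0804 to 0.0951 in ID8EV and 0.0425 to 0.0678 in ID8-200f, without overlap. In 28-2 it was 0.0580 to 0.128 in the controls and 0.0200 to 0.0543 in 28-2-200f. Col5a1 to Col5a2 was 0.180 to 0.201 in 28-2EV and 0.00236 to 0.0744 in 28-2-200f, where the lowest value was that of replicate 3, in which Col5a2 was high. In ID8 that ratio was 0.0475 to 0.0908 in the controls and 0.0346 to 0.0453 in ID8-200f. These ratios were not tested.

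**Figure D4:**
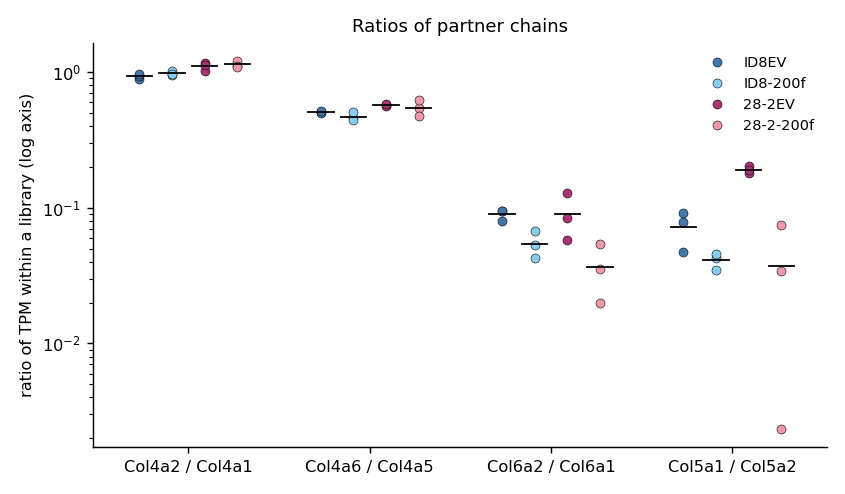
Ratio of the TPM of partner chains within each library (log axis), for 4 pairs, with points for libraries and bars for group means. The type IV ratios stay between 0.440 and 1.20 in all libraries, and Col6a2 over Col6a1 is lower in every 200f library than in the controls of its line.

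An interaction term fitted to the 12 libraries asked whether the response of a chain differed between ID8 and 28-2. Of 22 chains tested, 1 fell further in 28-2 (against 0.712% of all 13620 genes) and 2 changed less in 28-2 than in ID8 (against 2.26%). Col16a1 was the chain with the larger fall in 28-2, with a difference of -2.55 on the log2 scale (SE 0.31, edgeR adjusted p = 8.16e-04). For Col1a1 the difference was 1.99 in the other direction (SE 0.30, edgeR adjusted p = 0.00322). Both were called in all 18 alternatives, with adjusted p up to 0.00587 for Col16a1 and 0.0147 for Col1a1. The third was Col11a1 (edgeR adjusted p = 0.0160), which had 297 counts in ID8EV against 0 in ID8-200f and 3 against 11 counts in 28-2. It was not called without 28-2-200f replicate 2, which held 9 of those 11 counts (adjusted p = 0.125).

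The difference for Col5a1, -1.90 on the log2 scale (SE 0.53, edgeR adjusted p = 0.0862), did not pass. It passed with DESeq2 (adjusted p = 0.00263), with no filter (0.00282) and without 28-2-200f replicate 2 (adjusted p = 0.0480), in a range of 0.00263 to 0.196. The difference for Col12a1, -3.04 (SE 0.81, edgeR adjusted p = 0.0735), did not pass and rested on 37 counts in 28-2EV and 3 in 28-2-200f. It passed with DESeq2 (-3.18, adjusted p = 0.0281), with no filter (-3.05, edgeR adjusted p = 0.00975) and without 28-2EV replicate 1 (-3.40, edgeR adjusted p = 0.0349). Without 28-2EV replicate 2 the difference for Col3a1 passed (-1.78, edgeR adjusted p = 0.0344). Without 28-2EV replicate 1 or 2, 2 chains thus fell further in 28-2 (against 0.709% and 1.75% of all genes). For Col6a1 (-0.69, SE 0.59, edgeR adjusted p = 0.629) and Col6a2 (-1.34, SE 1.03, adjusted p = 0.586) no difference between the lines was detectable, and the errors leave room for one. For Col4a5 and Col4a6 the differences were -0.14 (SE 0.21) and -0.10 (SE 0.23), with edgeR adjusted p of 0.806 and 0.883.

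The lines also differed before any microRNA vector. Comparing 28-2EV with ID8EV, 4 of 22 chains were lower in 28-2 (against 2.52% of all 13073 genes), and 0 were called higher by edgeR (0 at an unadjusted p under 0.05 and 0 by DESeq2, against 0.887% of all genes). Col1a1 was lower by 4.17 on the log2 scale (log2 fold change -4.17, SE 0.23, edgeR adjusted p = 5.01e-04). Col5a2 had a log2 fold change of -1.86 (SE 0.17, edgeR adjusted p = 0.00220). Col12a1 had a log2 fold change of -3.02 (SE 0.47, edgeR adjusted p = 0.0164), a call lost without any 1 of the ID8EV replicates (adjusted p = 0.0802, 0.0839 and 0.0564 without replicates 1, 2 and 3). Col11a1 had 297 counts in ID8EV and 3 in 28-2EV, a depth-scaled ratio of 85.6 (95% counting interval from 29.0 to 417) (edgeR adjusted p = 0.00673).

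By contrast, Col16a1, Col4a5, Col4a6, Col5a1, Col6a1 and Col6a2 did not pass between the controls, with log2 fold changes of -0.04 to -0.46. Without 28-2EV replicate 2, 9 chains were lower in 28-2EV (against 5.41% of all genes in that fit). In that fit 1 chain was higher (against 659 of 13449 genes), Col17a1 at 0.90 on the log2 scale (edgeR adjusted p = 0.0319). The additional lower chains were Col3a1 (-1.19), Col4a1 (-1.08), Col4a2 (-0.88), Col14a1 (-1.48) and Col20a1 (-1.75), as log2 fold changes. This comparison uses the same control libraries as the comparisons with 200f.

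Genes that fold, trim and join collagen were called in both directions in ID8, where 19.0% of all genes were lower and 17.0% higher. Of 20 folding and secretion genes tested, 11 fell and 3 rose, with a median log2 fold change of -0.29. Those that fell included Serpinh1, the collagen chaperone Hsp47 (-0.70), and P3h1 and Crtap, which act together in prolyl 3-hydroxylation (-0.77 and -0.58). Those that rose were P4ha2 and P4ha1, catalytic subunits of prolyl 4-hydroxylase (1.04 and 0.39), and Mia2, a cargo receptor of the endoplasmic reticulum (0.30), all as log2 fold changes. In 28-2, 2 of 18 fell (against 2.18% of all genes), Serpinh1 (-1.47, edgeR adjusted p = 0.0132) and Crtap (-0.89, adjusted p = 0.0255), and the median was -0.19.

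Of 6 propeptide processing genes tested in ID8, 4 fell and 0 rose. Adamts14, a procollagen N-proteinase, fell by 3.13 on the log2 scale in ID8. It was the 1 gene of 5 called in 28-2 (against 2.18% of all genes), where it fell by 3.64 (edgeR adjusted p = 0.0111). Adamts2, the main N-proteinase of type I, had 216 counts in ID8EV and 2 in ID8-200f. Bmp1, the C-proteinase, had a log2 fold change of -0.29 in ID8 (edgeR adjusted p = 0.0196).

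Among 6 cross-linking enzymes, 4 fell and 1 rose in ID8. Lox (-1.77), Tgm2 (-2.31) and Loxl2 (-0.86) were lower and Loxl4 was higher (1.10), as log2 fold changes. In 28-2, 1 of 6 fell (against 2.18% of all genes), Loxl3 (-1.97, edgeR adjusted p = 0.00936). Receptors and regulators were similarly mixed, against the same 19.0% lower and 17.0% higher of all genes in ID8. Of 5 collagen receptors tested in ID8, 3 fell, Mrc2, the endocytic receptor Endo180 (-2.09), Ddr1 (-0.73) and Itgb1 (-0.25), and 1 rose, Itga11 (1.68). In 28-2, Mrc2 (-1.98) and Ddr2 (from 1174 to 36 counts in total) fell among 5 tested (against 2.18% of all genes).

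Of 7 collagen degradation genes tested in ID8, 4 fell, including the inhibitor Timp3 (-1.18) and the membrane collagenase Mmp14 (-0.73), and 0 rose. The shares of all genes in ID8 were 19.0% lower and 17.0% higher. In 28-2 none of 6 fell (against 2.18% of all genes) and 1 rose (against 2.26%), Mmp15, from 7 to 642 counts in total. Of 6 fibril regulators, 4 fell in ID8, among them the proteoglycan Dcn (-1.43), Sparc (-0.54) and Fn1 (-0.46), and Thbs1 rose (1.01). In 28-2, 1 of 6 fell (against 2.18% of all genes), Bgn (-1.12), as log2 fold changes.

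Markers of other cell types were read beside these results. Of 8 fibroblast markers, Thy1, Lum and Postn were at 0 counts in all groups. The 3 that could be tested in ID8, Pdgfra, Dcn and Acta2, all fell (against 19.0% of all genes). The 8 together summed to 212 to 272 TPM in ID8EV and 65.3 to 96.1 TPM in ID8-200f, and 44.6 to 284 TPM in 28-2EV and 130 to 250 TPM in 28-2-200f. In 28-2, Dcn (40.7 to 279 TPM in 28-2EV) made up most of this sum and did not pass (log2 fold change 0.20, edgeR adjusted p = 0.888). Pdgfra, a receptor of fibroblasts, was at 2.88 to 4.74 TPM in 28-2EV and 0.575 to 0.820 TPM in 28-2-200f, and fell by 2.59 on the log2 scale (edgeR adjusted p = 0.0105). Epithelial markers were higher, with sums of 8315 to 8855 TPM in ID8-200f and 10070 to 12080 TPM in 28-2-200f. Of the 6, 5 rose in ID8 (against 17.0% of all genes) and 3 in 28-2 (against 2.26%). Mesothelial markers summed to 2616 to 3444 TPM in ID8EV and 1398 to 1615 TPM in ID8-200f. In ID8, 4 of 5 fell and 1 rose (against 19.0% and 17.0% of all genes). The mesothelial sums were 1078 to 1645 TPM in 28-2EV and 1125 to 1737 TPM in 28-2-200f, where 1 of 5 fell (against 2.18%). Leukocyte markers summed to at most 12.2 TPM and endothelial markers to at most 1.84 TPM in any library, and endothelial Pecam1 fell by 1.59 on the log2 scale in ID8 (edgeR adjusted p = 0.00631). Of 3 chondrocyte markers, Matn1 was at 0 counts in all groups. Sox9, a transcription factor of cartilage, rose in ID8 (log2 fold change 0.71, edgeR adjusted p = 4.10e-04). Acan, the cartilage proteoglycan aggrecan, rose in 28-2, from 0 counts in 28-2EV to 410 in 28-2-200f (edgeR adjusted p = 0.0165). Osteoblast markers summed to at most 0.853 TPM. The part of fibroblast, mesothelial, endothelial and chondrocyte marker levels in the collagen differences was not tested.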

How the data were processed

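Whole read counts per gene were deposited for 12 libraries, beside TPM and CPM columns computed by the authors' pipeline. Within Genialis version 3.0, the authors used BBDuk for trimming, STAR for alignment to GRCm39 (per the labels) and featureCounts for counting. The annotation release and strand setting are not given in the sources used here, so sense and antisense reads cannot be told apart. Of the 15 chains, at most 1.54% of the exon bases (Col20a1) overlapped another gene in GENCODE M21. Coordinates printed are GRCm38, used for sequences only.

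The main test was the quasi-likelihood test of edgeR 4.0.16 (R 4.3.3), with TMM scaling, on genes kept by filterByExpr at its settings of 10 counts and 15 in total, fitted on the 2 groups compared, or on all 12 libraries for the line difference. Benjamini-Hochberg adjustment covered every gene in a fit. Results were recomputed without a filter or with one of 1 CPM in 3 or more libraries, with RLE or library size scaling, with DESeq2 1.42.0, with limma 3.58.1 on log2(TPM + 1), in a single fit of the 4 groups, with the replicate number as a block and with each library left out. DESeq2 without 28-2EV replicate 2 was a later choice, made because that library differed from its group. TPM in the text are the deposited values. Between replicates of a group, chi-square divided by its degrees of freedom was 5.42 to 145, above counting error. The counting interval and the floor of 3 counts hold for counting error alone, as PCR copies of a molecule were not told apart.

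Chains with a group mean of at least 5 CPM, or past the stricter cut-off, are given in every library, and list genes by adjusted p, at most 3 in each direction. The members and the gene lists were chosen with earlier results of these data known. The steps were tested on simulated data before use. Scripts ran in Python 3.11.15 with matplotlib 3.10.9, pandas 2.3.3, numpy 2.4.6 and scipy 1.17.1. Protein, invasion and microRNA measurements were not analysed here.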

Additional observations from a re-analysis of the deposited data

Results flagged for a closer look

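The response of 3 chains differed between the lines by the interaction test. Col16a1 had a difference of -2.55 on the log2 scale (28-2 minus ID8), with a fall in all 200f libraries of both lines that was larger in 28-2. Col1a1 had a difference of 1.99, with a level in 28-2EV that was already under that of ID8-200f. Col11a1 had a fitted difference of 11.3, a value that depends on how 0 counts are treated, since ID8-200f held 0 counts and 28-2EV held 3.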

How the results depend on the processing

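None of 1283 recomputed fold changes of single chains reversed a call, 1211 kept their side of the threshold, 30 lost it and 42 gained it. The lower calls in ID8 were 14, but 8 with all 4 groups in one fit, where lower calls over all genes went from 2519 to 647. The 6 chains not called there were Col5a2, Col3a1, Col17a1, Col14a1, Col4a1 and Col4a2 (edgeR adjusted p = 0.0889, 0.162, 0.200, 0.237, 0.272 and 0.384). They had similar log2 fold changes in both fits (for example, Col5a2 -1.40 and -1.38, Col3a1 -1.29 and -1.26). In 28-2, 6 chains were lower, against 10 with no filter, 10 with all 4 groups and 10 with DESeq2 without 28-2EV replicate 2. Over all genes the 277 lower calls were 579, 1083 and 1211 in these fits. The 2 past the stricter cut-off became 5 with DESeq2, 1 with library size scaling, 4 with no filter, 6 with all 4 groups and 9 with DESeq2 without 28-2EV replicate 2. The share of all genes past it was 0.757% in the main fit and, in the same order, 5.54%, 0.592%, 2.29%, 5.33% and 7.60%. Between the controls, 4 lower became 8 with no filter, and 9 lower with 1 higher with DESeq2 without 28-2EV replicate 2. Of all genes, 2.52% were lower in the main fit, 2.23% with no filter and 7.38% in the last fit, where 858 of 13449 were higher. The line difference had 1 lower call (against 0.712% of all genes), but 3 with DESeq2 (against 2.36%) and 3 with no filter (against 1.08%). Beyond the construction of each alternative, the cause was not tested.

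Leaving out each library in turn gave 13 to 16 lower calls in ID8 and 2 to 9 in 28-2, and 9 to 10 and 0 to 5 past the stricter cut-off. Of all genes, 15.1% to 18.1% were lower in ID8 and 0.214% to 5.49% in 28-2 in these fits. The stricter cut-off was passed by 5.91% to 7.55% and 0.0611% to 1.87% of all genes. Between the controls it gave 3 to 9 lower and 0 to 1 higher, and for the line difference 1 to 2 lower and 1 to 2 higher. Over all genes, 0.792% to 5.41% were lower and 11 to 659 genes higher between the controls. For the line difference, 0.323% to 1.75% of all genes were lower and 163 to 505 genes higher. Libraries whose loss changed the call of a chain named in the report are given there. In these fits a group of 2 libraries was used.

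With the replicate number as a block, 14 chains were lower in ID8 (against 17.6% of all genes) and 4 in 28-2 (against 0.907%). In 28-2, 1 passed the stricter cut-off (against 0.197%), and Col1a1 and Col4a6 lost their calls (edgeR adjusted p = 0.0789 and 0.0731). Libraries with the same number did not deviate together in every pair (Pearson r over genes -0.13, 0.06 and -0.03 in ID8 and 0.24, 0.13 and -0.34 in 28-2), so the numbers were not taken as pairs.

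Replicates of 28-2 spread widely and 22 chains had low counts. Drug dose and vector changed with the microRNAs.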
